A study of Mus musculus with 6 samples.

Results

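The 10 genes described here encode heat shock proteins of the Hsp70, Hsp110, Hsp90, Hsp60, J-domain and small heat shock families, together with the transcription factor Hsf1. They were chosen by gene symbol, and each matched 1 of the 41388 Ensembl identifiers in the count table. All 10 passed the filter on low counts, as did 15939 genes in all. Although the set is named for cytosolic heat shock genes, Hspd1 encodes a chaperonin that works in the mitochondrial matrix, and Hsf1 is a regulator, not a chaperone.

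RNA was sequenced from the livers of BALB/c mice in which carbon tetrachloride (CCl4), a liver toxin, had been given for 5 weeks to induce fibrosis. In the AL/NP group, mice with this fibrosis also received nanoparticles carrying alendronate, a bisphosphonate, at 4 mg/kg, injected 2 times per week over the last 2 weeks. The control group had the same CCl4 fibrosis and is labelled untreated; the labels do not say whether these mice received other injections. There were 3 libraries in each group, and the pieces came from every lobe of the liver. No healthy liver and no particle without drug was among the samples, so drug, carrier and injection cannot be told apart, and all 6 livers had been exposed to CCl4. The labels number the replicates without saying that each is a separate mouse, so p-values measure the spread between these samples.

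Heat shock proteins are chaperones that bind unfolded protein. Hsp70 works in cycles with J-domain proteins, which deliver the substrate, and with nucleotide exchange factors such as Hsp110, which release it; Hsp90 receives part of that substrate. Under stress, Hsf1 is freed from chaperones, forms trimers and binds heat shock elements, repeats of the unit GAA and its complement TTC, in the promoters of these genes. The inducible Hsp70 genes Hspa1a and Hspa1b have little transcript in unstressed tissue, whereas Hspa8 and Hsp90ab1 are made constitutively. Hepatocytes, the main liver cell type, synthesise large amounts of secreted protein.

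Library totals ranged from 30554483 to 33283147 counts in the AL/NP group and from 32694163 to 39838428 in the control group. Control replicate 3 stood apart, with 26.7% of its counts from mitochondrially encoded genes, against 12.0% to 19.8% in the other 5 libraries. Its TMM scaling factor was 0.809, against 0.937 to 1.13. By replicate the mitochondrial share was 17.0%, 14.2% and 12.0% in AL/NP livers, against 16.2%, 19.8% and 26.7% in control livers. Nuclear copies of these genes held a further 6.50% to 9.82% of counts in AL/NP livers and 8.93% to 14.6% in control livers. All 12 hepatocyte markers were detected, and their summed level was 66100.1 to 77551 CPM, counts scaled to the size of the library, in AL/NP livers and 75628 to 98515 CPM in control livers. CPM values below are scaled with TMM factors. In whole liver, fewer cells of a type and less RNA per cell cannot be told apart.

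The promoter stretches of the inducible Hsp70 pair are shown because these are the 2 genes that passed the test. Both genes lie on the minus strand of chromosome 17, and both windows cover the 250 bases before the annotated start (RefSeq, GRCm38.p6). Capitals mark a match to GAANNTTC or TTCNNGAA, 2 heat shock element units facing each other; either spelling is its own reverse complement, so both strands were searched.
Hspa1a, chr17:34972157-34972406: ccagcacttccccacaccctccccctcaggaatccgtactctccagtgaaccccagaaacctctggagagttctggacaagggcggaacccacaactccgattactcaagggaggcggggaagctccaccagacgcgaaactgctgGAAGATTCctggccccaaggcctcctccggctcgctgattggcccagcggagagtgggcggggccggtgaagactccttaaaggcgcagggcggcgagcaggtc
Hspa1b, chr17:34959239-34959488: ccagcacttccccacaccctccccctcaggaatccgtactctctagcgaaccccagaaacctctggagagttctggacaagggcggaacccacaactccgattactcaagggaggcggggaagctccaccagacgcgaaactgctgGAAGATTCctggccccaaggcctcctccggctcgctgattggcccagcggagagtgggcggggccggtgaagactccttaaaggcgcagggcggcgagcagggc

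The windows of Hspa1a and Hspa1b were identical at 247 of 250 positions. Each held 1 match, from 104 to 97 bases before the start. A window was at hand for 6 of the 10 genes (Hspa1a, Hspa1b, Hsph1, Dnajb1, Hspb1 and Hspd1), and 5 of these held such a match; Dnajb1 held none. Of all 32851 promoter windows of the same length, 12.8% held one. Counted by gene, as for the 6 here, 14.5% of 27025 genes held one in at least 1 window. A run of 3 alternating units is GAANNTTCNNGAA or its reverse complement TTCNNGAANNTTC, which contains the shorter motif. It was found in 0.466% of all windows and 0.514% of all genes and, among these 6 genes, in Hspd1. Hsph1, Dnajb1 and Hspd1 each have 2 promoter windows. The Hspd1 window with the matches lies before a start inside the gene as annotated in GENCODE M21. Both Hsph1 windows also lie before starts inside the annotated gene, and the Hsph1 match falls within the gene. The 30 bases around the matches of the 3 other genes show how the units are arranged.
Hsph1, chr5:149636351-149636380, minus strand: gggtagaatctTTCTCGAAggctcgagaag
Hspb1, chr5:135887801-135887830, plus strand: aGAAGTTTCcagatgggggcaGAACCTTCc
Hspd1, chr1:55088053-55088082, minus strand: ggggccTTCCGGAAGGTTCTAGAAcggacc
These matches describe the letters in the windows and are not evidence of binding.

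The inducible Hsp70 genes were higher in AL/NP livers than in control livers, about 5-fold. Hspa1b and Hspa1a encode nearly the same protein, the stress-induced cytosolic Hsp70, and lie side by side on chromosome 17. Of the 10 genes these 2 were called by edgeR at an adjusted p under 0.05, both higher, where 0.0816% of all tested genes were called (0.0627% higher and 0.0188% lower). A group of 3 genes of the same chaperone cycle (Hspa8, Hsph1 and Dnajb1) lay above the controls without overlap but did not pass. The remaining 5 (Hspb1, Hsp90aa1, Hsp90ab1, Hspd1 and Hsf1) overlapped between the groups.

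Hspa1b (ENSMUSG00000090877, chromosome 17, 34956436 to 34959238, protein coding in GENCODE M21) measured 48.5, 60.0 and 49.0 CPM in AL/NP replicates 1 to 3, against 13.2, 7.29 and 8.73 CPM in control replicates 1 to 3. Every AL/NP library lay above every control, and the gap between the groups was wider than the range within either. On the log2 scale the fold change was 2.43 (SE 0.232, 95% interval 1.91 to 2.96), a 5.40-fold difference with an adjusted p of 0.0480 (edgeR quasi-likelihood test, Benjamini-Hochberg). Its unadjusted p, 3.01e-06, ranked 1 among the tested genes.

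Hspa1a (ENSMUSG00000091971, chromosome 17, 34969190 to 34972156) measured 18.2, 20.6 and 19.1 CPM in AL/NP livers, against 6.23, 2.87 and 2.86 CPM in control livers. The AL/NP libraries lay close together, and control replicate 1 was the highest control for this gene as for Hspa1b. Its log2 fold change was 2.27 (SE 0.300, 95% interval 1.59 to 2.96; adjusted p = 0.0493, edgeR), a 4.84-fold difference. DESeq2 called both genes, with adjusted p-values of 9.10e-18 for Hspa1b and 8.25e-10 for Hspa1a.

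Reads of the 2 genes can match both. Of the 50-base stretches of the longest Hspa1b transcript, 62.3% occur unchanged in a transcript of Hspa1a, and 58.8% of those of Hspa1a occur in Hspa1b; reads were 50 bases long and paired. The table held 2.66, 2.91 and 2.57 Hspa1b counts per Hspa1a count in AL/NP livers, against 2.11, 2.54 and 3.05 in control livers, and the groups overlapped (exact permutation test, two-sided p = 0.7, 8 ratios compared, adjusted p = 0.8). Summed into 1 gene, the pair measured 71.9 ± 7.66 CPM in AL/NP livers and 13.7 ± 4.96 CPM in control livers (SD, n = 3 each). The sum had a log2 fold change of 2.39 (SE 0.250), but its adjusted p was 0.0533 (edgeR), so the sum was not called.

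The calls of the pair lay close to the threshold and were lost when any 1 library other than control replicate 1 was left out. In those 5 fits the log2 fold change of Hspa1b was 2.25 to 2.49 (adjusted p 0.0629 to 0.148, edgeR) and that of Hspa1a was 2.07 to 2.31 (adjusted p 0.0725 to 0.202).

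**Figure D1:**
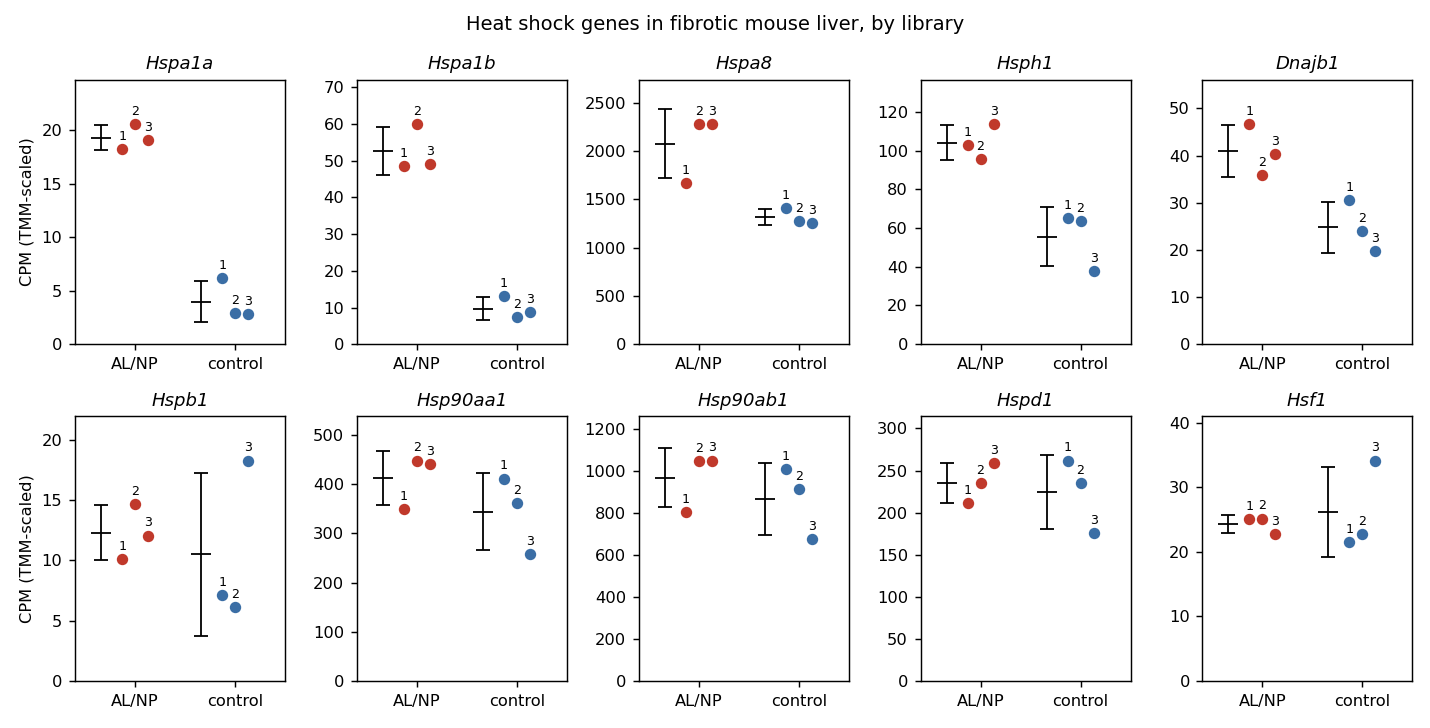
Level of each of the 10 genes in every library, in TMM-scaled CPM on a linear axis that starts at 0, with AL/NP libraries (red, left) and control libraries (blue, right) and the replicate number above each point; the bar and whiskers to the left of each group are its mean and SD (n = 3). The groups do not overlap in the upper row, whereas they overlap in the lower row, where control replicate 3 is the lowest library for Hsp90aa1, Hsp90ab1 and Hspd1 and the highest for Hspb1 and Hsf1.

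Hspa8 (chromosome 9, 40800984 to 40810087), the constitutive cytosolic Hsp70, measured 1669.7, 2281 and 2281 CPM in AL/NP livers, against 1409.7, 1279 and 1259 CPM in control livers. The groups did not overlap, and AL/NP replicate 1 lay nearest to the controls. The fitted log2 fold change was 0.66 (SE 0.196, 95% interval 0.21 to 1.10), with an unadjusted p of 0.00862 and an adjusted p of 0.152 (edgeR), so Hspa8 was not called. DESeq2 called it, at an adjusted p of 0.0168.

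Hsph1 (chromosome 5, 149614287 to 149636376), the Hsp110 that releases nucleotide from Hsp70, measured 103, 95.9 and 114 CPM in AL/NP livers, against 65.0, 63.5 and 37.9 CPM in control livers. Control replicate 3 was the lowest library, and every AL/NP library was above every control. On the log2 scale the fold change was 0.91 (SE 0.217, 95% interval 0.41 to 1.40; unadjusted p = 0.00254, adjusted p = 0.124, edgeR).

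Dnajb1 (chromosome 8, 83608193 to 83612653), the stress-induced J-domain protein known as Hsp40, measured 46.7, 35.9 and 40.3 CPM in AL/NP livers, against 30.6, 23.9 and 19.8 CPM in control livers. The groups did not overlap, with control replicate 1 nearest to the AL/NP libraries. Its log2 fold change was 0.73 (SE 0.191, 95% interval 0.29 to 1.16; unadjusted p = 0.00435, adjusted p = 0.139, edgeR). DESeq2 called Hsph1 and Dnajb1, with adjusted p-values of 0.00925 and 0.0345, and so called 5 of the 10 genes, all higher, where it called 5.17% of 16367 genes (2.65% higher and 2.52% lower).

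In all, 5 of the 10 genes were higher without overlap between groups, against 14.5% of all tested genes that were higher and 15% that were lower. The same 5 had an unadjusted p under 0.05, where 19.6% of tested genes were at that level, 9.37% higher and 10.3% lower. A log2 fold change above 0 was found for 9 of the 10, and for 50% of all tested genes. The median log2 fold change of the 10 was 0.46, and that of all 15939 tested genes was -0.00025. Reads of Hspa1a and Hspa1b can match both, so the pair does not count as 2 separate genes in full. With the pair summed, 4 of 9 had an unadjusted edgeR p under 0.05, 8 were above 0 and 0 were called. The genes were named with earlier results of these libraries known, so these counts are a description.

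**Figure D2:**
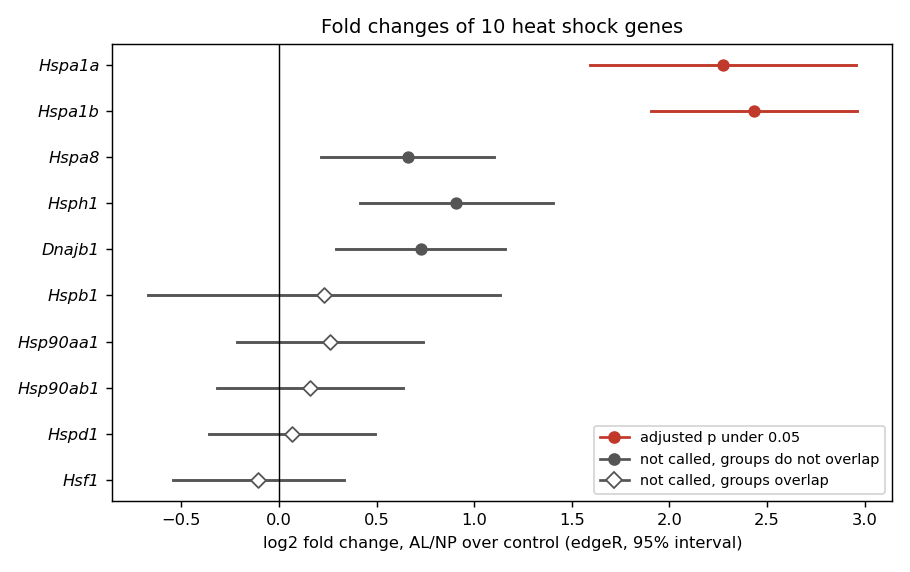
Log2 fold change of each gene, AL/NP over control, with its 95% interval from the edgeR fit; red marks an adjusted p under 0.05, filled grey circles genes that were not called but whose groups do not overlap, and open diamonds genes whose groups overlap. Hspa1b at 2.43 and Hspa1a at 2.27 lie apart from Hsph1, Dnajb1 and Hspa8 at 0.91, 0.73 and 0.66, and the intervals of the other 5 genes include 0.

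The share of the inducible pair among these Hsp70 counts was also compared. Hspa1a and Hspa1b together took 3.84%, 3.42% and 2.90% of the counts of Hspa1a, Hspa1b and Hspa8 in AL/NP livers, against 1.36%, 0.789% and 0.912% in control livers. The groups did not overlap, but 3 libraries against 3 allow no exact p below 0.1, which was the value reached (two-sided exact permutation test, adjusted p = 0.267 over 8 ratios). Hspa8 still provided most of these counts in every library. Its near copy Gm8355, counted as a gene of its own, held 51.5 counts per 100 of Hspa8. These shares can therefore depend on how reads were assigned, which was not tested.

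Hsp90aa1 (chromosome 12, 110690605 to 110702728), the stress-responsive cytosolic Hsp90, measured 349, 448 and 441 CPM in AL/NP livers, against 411, 363 and 259 CPM in control livers. AL/NP replicate 1 lay below control replicates 1 and 2, so the groups overlapped. The fitted log2 fold change was 0.26 (SE 0.209, 95% interval -0.21 to 0.74; adjusted p = 0.491, edgeR).

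Hsp90ab1 (chromosome 17, 45567775 to 45573271), the constitutive cytosolic Hsp90, measured 803, 1046 and 1048 CPM in AL/NP livers, against 1007, 912 and 675 CPM in control livers. The order of the libraries was nearly that of Hsp90aa1, with AL/NP replicate 1 and control replicate 3 lowest. On the log2 scale the fold change was 0.16 (SE 0.210, 95% interval -0.32 to 0.64; adjusted p = 0.688, edgeR). The ratio of Hsp90aa1 to Hsp90ab1 counts was 0.435, 0.428 and 0.421 in AL/NP livers, against 0.409, 0.397 and 0.383 in control livers. These ratios did not overlap, and the exact p was again 0.1, the smallest this design allows (two-sided permutation, adjusted p = 0.267 over 8 ratios). The near copies Gm12346 and Gm5844 held 23.6 and 14.0 counts per 100 of Hsp90aa1, so this ratio too can depend on how reads were assigned.

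Hspd1 (chromosome 1, 55077835 to 55088243), the mitochondrial Hsp60, measured 212, 235 and 259 CPM in AL/NP livers, against 262, 236 and 176 CPM in control livers. Control replicate 1 was the highest and control replicate 3 the lowest of the 6 libraries, so the AL/NP range lay inside that of the controls. Its log2 fold change was 0.067 (SE 0.187, 95% interval -0.36 to 0.49; adjusted p = 0.865, edgeR). Hspe1, its co-chaperonin Hsp10, shares 112 exonic bases with Hspd1 on the opposite strand and had a log2 fold change of -0.10 (adjusted p = 0.718, edgeR).

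Hspb1 (chromosome 5, 135887919 to 135889563), a small heat shock protein that holds unfolded protein and binds actin, measured 10.1, 14.7 and 12.1 CPM in AL/NP livers, against 7.09, 6.10 and 18.3 CPM in control livers. Control replicate 3 was above all 5 other libraries, and the other controls were below every AL/NP library. The fitted log2 fold change was 0.23 (SE 0.393, 95% interval -0.67 to 1.13; adjusted p = 0.767, edgeR).

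Hsf1 (chromosome 15, 76477422 to 76501913), the transcription factor that drives the heat shock response, measured 25.1, 25.2 and 22.7 CPM in AL/NP livers, against 21.5, 22.8 and 34.1 CPM in control livers. The AL/NP libraries were within the control range, and control replicate 3 was again the highest. On the log2 scale the fold change was -0.10 (SE 0.192, 95% interval -0.54 to 0.33; adjusted p = 0.785, edgeR). Hsf1 is regulated chiefly as a protein, through release from chaperones and modification, which RNA levels do not show.

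Several of these values rest on control replicate 3. Without it the log2 fold change was 0.89 for Hspb1 (adjusted p = 0.117), 0.13 for Hsf1, 0.09 for Hsp90aa1, 0.0061 for Hsp90ab1 and -0.085 for Hspd1 (edgeR; none called). For the genes above the controls it was 2.36 for Hspa1b, 2.08 for Hspa1a, 0.69 for Hsph1, 0.62 for Hspa8 and 0.58 for Dnajb1.

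**Figure D3:**
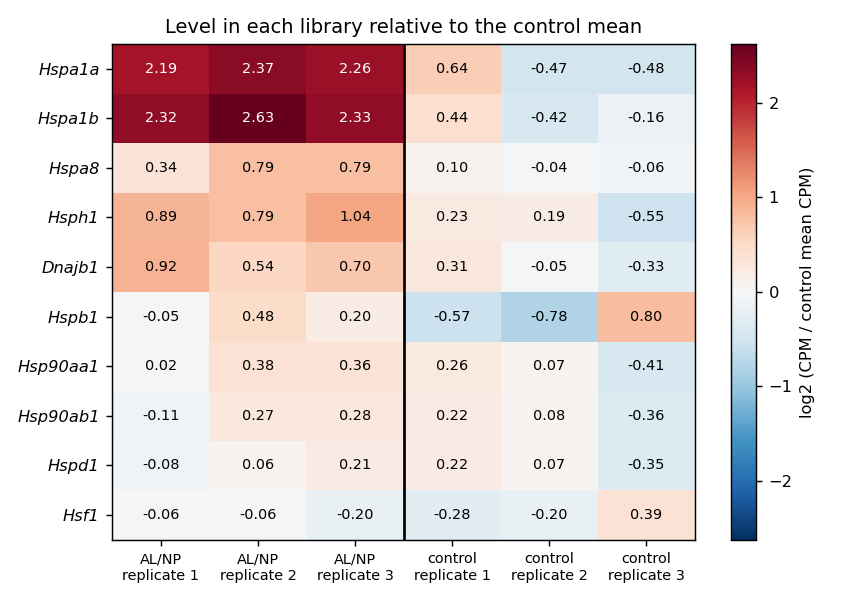
Level of each gene in each library as log2 of its CPM over the mean CPM of the 3 controls, with AL/NP libraries left of the line and control libraries right of it. Hspa1a and Hspa1b are between 2.19 and 2.63 in AL/NP libraries, and control replicate 3 is at -0.55 for Hsph1, at -0.41, -0.36 and -0.35 for Hsp90aa1, Hsp90ab1 and Hspd1, and at 0.80 for Hspb1.

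Per kilobase of exon, the order of levels differed between the groups. In AL/NP livers Hspa8 was highest at 483 ± 82.1 CPM per kilobase (SD, n = 3), followed by Hsp90ab1 at 322 ± 46.9. Hsp90aa1 at 105 ± 14.0 and Hspd1 at 89.0 ± 8.90 came next and overlapped, then Hspa1b at 18.7 ± 2.32. Hsph1, Dnajb1 and Hspb1 followed at 14.3, 12.8 and 11.9 CPM per kilobase, each overlapping the next, above Hspa1a at 6.51 ± 0.404 and Hsf1 at 3.42 ± 0.197.

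In control livers Hspa8 at 306 ± 19.1 and Hsp90ab1 at 288 ± 57.0 CPM per kilobase overlapped, as did Hsp90aa1 at 87.6 ± 19.8 and Hspd1 at 85.0 ± 16.7. Hspb1, Dnajb1 and Hsph1 overlapped at 10.2, 7.73 and 7.63 CPM per kilobase. Hsf1 at 3.68 ± 0.981 overlapped Hspa1b at 3.47 ± 1.09, and Hspa1a was lowest at 1.34 ± 0.655. On these lengths Hspa1b ranked 5 of 10 in AL/NP livers and 9 of 10 in control livers, with the split of its reads from Hspa1a uncertain. Ranks between genes depend on the length used, and transcript lengths were not tried. The longest transcripts of Hsph1 and Hsf1 have 4764 and 3133 bases, against 7266 and 7099 exonic bases. On those lengths both would stand higher relative to Hspa1b and Hspa1a, whose lengths would not change.

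Among co-chaperones of Hsp70, 13 of 19 tested genes had a log2 fold change above 0, with a median of 0.12. EdgeR called 0 of them, 5 reached an unadjusted p under 0.05, all higher, while DESeq2 called 4, all higher. Of all tested genes 9.37% were higher and 10.3% lower at that unadjusted edgeR level. DESeq2 called 2.65% of its genes higher and 2.52% lower. The same shares apply to each list below. Bag3, a nucleotide exchange factor that hands clients to autophagy and is a known Hsf1 target, measured 65.4, 50.4 and 58.8 CPM in AL/NP livers, against 26.3, 29.0 and 21.3 CPM in control livers. These groups did not overlap, and the log2 fold change was 1.19 (SE 0.171, adjusted p = 0.0617, edgeR). Bag2, a cofactor that restrains the ubiquitin ligase of the Hsp70 machine, was at 1.18 (SE 0.325, adjusted p = 0.144), and the J-domain protein Dnajb2 at 0.46 (SE 0.130, adjusted p = 0.145).

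Among the other Hsp70 and Hsp110 genes, 3 of 6 tested were above 0, with a median log2 fold change of 0.11; 1 had an unadjusted p under 0.05, and edgeR and DESeq2 called 0. Hspa1l, a neighbour of Hspa1a expressed chiefly in testis, was at 0.626, 0.716 and 0.696 CPM in AL/NP livers, against 0.431, 0.193 and 0.280 CPM in control livers (log2 fold change 1.17, adjusted p = 0.187). It shares 6.79% of the 50-base stretches of Hspa1b. Hspa2, another Hsp70 known from testis, was at 0.80 (adjusted p = 0.279) and Hspa12b, known from endothelium, at -0.40 (adjusted p = 0.408, edgeR).

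Of 18 Hsp90 co-chaperones, 12 were above 0, with a median log2 fold change of 0.15. EdgeR called 0, 3 reached an unadjusted p under 0.05, all higher, while DESeq2 called 1, higher. The shares of all genes were 9.37% higher at that unadjusted level and 2.65% called higher by DESeq2. With 18 genes these counts are a description. Fkbp5, an immunophilin of steroid receptor complexes that glucocorticoids induce, was at 0.67 (adjusted p = 0.144). Cdc37, which brings kinases to Hsp90, was at 0.47 (adjusted p = 0.204), and Pih1d1, a subunit of the R2TP assembly complex, at 0.56 (adjusted p = 0.240, edgeR). Pih1d1 was at 61.4 CPM in AL/NP replicate 1, against 37.8 and 32.6 CPM in AL/NP replicates 2 and 3, and 26.5 to 32.0 CPM in control livers.

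Among small heat shock proteins, 5 of 6 tested genes were above 0 (median 0.21), and edgeR and DESeq2 called 0. Hspb8, which works with Bag3, had an unadjusted p of 0.0236 and measured 166, 128 and 144 CPM in AL/NP livers, against 101, 89.7 and 122 CPM in control livers (log2 fold change 0.48, adjusted p = 0.201, edgeR). It alone of the 6 had an unadjusted p under 0.05. Hspb6 was at 0.37 (adjusted p = 0.365) and Cryab, alpha B-crystallin, at 0.30 (adjusted p = 0.448).

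Of 10 mitochondrial chaperones, 5 were above 0 and 5 below (median -0.036); edgeR called 0, with 1 higher and 1 lower at an unadjusted p under 0.05, and DESeq2 called 1. Clpx, the unfoldase of a matrix protease, was at 0.61 (adjusted p = 0.124), Grpel2, an exchange factor of mitochondrial Hsp70, at -0.51 (adjusted p = 0.144), and its relative Grpel1 at 0.23 (adjusted p = 0.502, edgeR).

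Of the 8 subunits of TRiC, the cytosolic chaperonin that folds actin and tubulin, 7 were above 0 (median 0.16); edgeR and DESeq2 called 0, as did the unadjusted threshold. The TRiC subunits Cct5, Cct4 and Cct6a were at 0.47, 0.45 and 0.53, with adjusted p of 0.276, 0.357 and 0.384 (edgeR). The summed TRiC level was 1183, 1215 and 1131 CPM in AL/NP livers, against 1190.2, 1153 and 817 CPM in control livers, so the groups overlapped and control replicate 3 was lowest. Without that library 5 of the 8 subunits were above 0 and the median was 0.037.

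Chaperones of the endoplasmic reticulum (ER) were above 0 in 13 of 15, and their median was 0.36 on the log2 scale. EdgeR called 0, 7 reached an unadjusted p under 0.05, all higher, while DESeq2 called 2, both higher. Over all genes 9.37% were higher at that unadjusted level, and DESeq2 called 2.65% higher. Dnajb9, a J-domain protein of ER-associated degradation, measured 80.9, 78.5 and 105 CPM in AL/NP livers, against 37.0, 47.0 and 20.7 CPM in control livers (log2 fold change 1.34, adjusted p = 0.103, edgeR). Creld2, an ER stress-induced protein, was at 1.13 (adjusted p = 0.148) and Hspa13, an Hsp70 of the secretory pathway, at 0.76 (adjusted p = 0.159). The summed ER chaperone level was 8905, 6983 and 9179.7 CPM in AL/NP livers, against 7783, 7473 and 6131 CPM in control livers. These sums overlapped, with AL/NP replicate 2 below control replicates 1 and 2, and control replicate 3 was the lowest library for the sum and for Dnajb9, Creld2 and Hspa13. Without it 13 of 15 were above 0, the median was 0.27, and 5 reached an unadjusted p under 0.05.

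Regulators of the heat shock response were mostly below 0, though edgeR called 0 of them. Of 8 tested, 7 were below 0 (median log2 fold change -0.33), where 50% of all tested genes were above 0. An unadjusted edgeR p under 0.05 was reached by 4, all lower, where 10.3% of all tested genes were lower at that level. DESeq2 called 1, lower, where it called 2.52% of its genes lower. Hsf2, a heat shock factor that can pair with Hsf1, measured 19.2, 22.1 and 20.8 CPM in AL/NP livers, against 26.3, 27.0 and 30.4 CPM in control livers. The groups of Hsf2 did not overlap (log2 fold change -0.43, SE 0.136, adjusted p = 0.169, edgeR). Crebbp, an acetyltransferase, was at -0.45 (adjusted p = 0.147) and Hsbp1l1 at -1.43 (adjusted p = 0.159), with 5.50 CPM in control replicate 3.

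**Figure D4:**
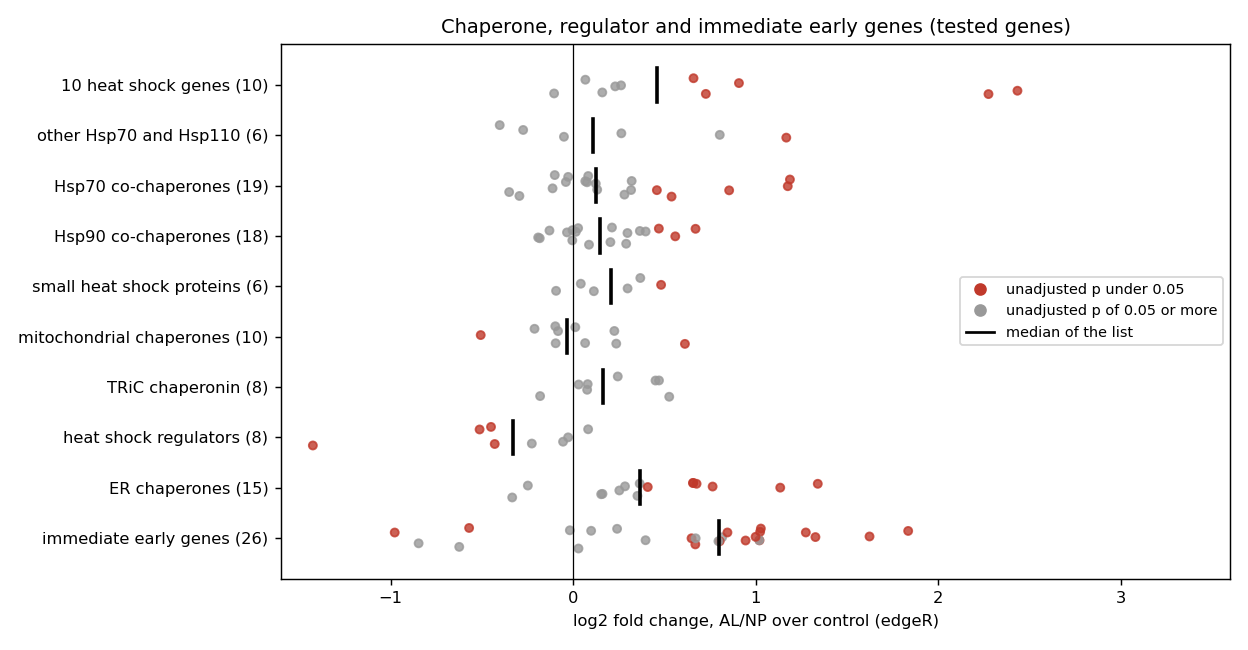
Log2 fold change, AL/NP over control, of each tested gene of 10 gene lists (number tested in parentheses), with red points for an unadjusted edgeR p under 0.05, grey points for the others and a black line at the list's median; points are spread vertically for legibility. Hspa1a and Hspa1b lie to the right of every gene of the other lists shown, and the regulators have a median of -0.33.

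Genes named by likeness to Hspa1b came from 12212 tested genes with a mean of at least 1 CPM. Over the 6 libraries the highest Pearson correlations of log2 CPM with Hspa1b were those of Ambp (0.995), Hp (0.994), Orm3 (0.993), Hspa1a (0.991) and Fam49a (0.985). These values are a description: the 6 points fall into 2 groups and share the libraries and their scaling. Ambp, the precursor of alpha-1-microglobulin, averaged 2473 ± 22.2 CPM in AL/NP livers and 1723 ± 126 CPM in control livers (SD, n = 3 each). Hp, haptoglobin, averaged 6628 ± 262 CPM in AL/NP livers and 2693 ± 669 CPM in control livers. Orm3, an orosomucoid, had a log2 fold change of 1.57 (adjusted p = 0.0493, edgeR), whereas Hp at 1.30 (0.0903), Fam49a at 0.84 (0.144) and Ambp at 0.52 (0.179) were not called.

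Levels of other gene groups stand beside this result. Immediate early genes, which respond to stress and to tissue handling, were above 0 in 21 of 26 tested, the median being 0.80 on the log2 scale; edgeR called 0, 13 higher and 2 lower reached an unadjusted p under 0.05, while DESeq2 called 6, all higher. Their summed level was 1046, 739 and 603 CPM in AL/NP livers, against 622, 577 and 604 CPM in control livers, so AL/NP replicate 3 lay within the control range. Among all tested genes 9.37% were higher and 10.3% lower at an unadjusted edgeR p under 0.05, and DESeq2 called 2.65% of its genes higher. Ccn1, a matricellular protein, was at 1.27 (adjusted p = 0.0617), and the transcription factors Klf2 and Klf4 were at 1.03 (adjusted p = 0.0783) and 1.62 (adjusted p = 0.0970, edgeR). Their part in the heat shock result was not tested.

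Macrophage markers were above 0 in 13 of 14 tested genes (median 1.04; edgeR called 0, 10 reached an unadjusted p under 0.05, all higher, while DESeq2 called 3), and their summed level was 505 to 915 CPM in AL/NP livers and 262 to 434 CPM in control livers. Neutrophil markers were above 0 in all 7 tested of 13 (median 1.25; edgeR called 0, 4 passed at an unadjusted p under 0.05, and DESeq2 called 3), with a summed level of 36.1 to 84.8 CPM in AL/NP livers and 19.7 to 36.0 CPM in control livers. For comparison, 9.37% of all tested genes were higher at that unadjusted level, and DESeq2 called 2.65% of its genes higher. Ly6g, a defining neutrophil marker, summed to 11 counts in the AL/NP group and 5 in the control group, with 0 in AL/NP replicate 1 and control replicates 1 and 2. No other listed cell type marker had 0 counts in any library. Their part in the heat shock result was not tested.

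The other marker lists had medians of -0.23 for hepatocytes (12 tested), -0.25 for stellate cells (12), -0.0023 for endothelium (11), 0.55 for cholangiocytes (8) and 0.11 for lymphocytes (11). Without control replicate 3 the medians were -0.071, 0.043, -0.12, 0.55 and 0.43 in the same order of lists. Those of neutrophil and macrophage markers were 1.87 and 1.29. The low-count filter was applied anew in that fit, and markers can pass it through the AL/NP libraries alone. It kept 12 lymphocyte and 12 neutrophil markers, against 11 and 7 with all 6 libraries. The lymphocyte and neutrophil medians thus cover different genes and do not show the effect of that library alone. With all 6 libraries edgeR called 0 genes in each list. An unadjusted p under 0.05 was reached by 1 hepatocyte marker that was higher and 2 that were lower. It was also reached by 1 cholangiocyte marker higher and 1 lower, and by 1 stellate and 1 lymphocyte marker, both higher. No endothelial marker was at that level, where 19.6% of all tested genes were. DESeq2 called 1 hepatocyte marker higher and 1 lower, and 1 lymphocyte marker higher, where it called 5.17% of its genes. Cd3e, the lymphocyte marker, was at 16.6 CPM in AL/NP replicate 1, against 2.67 and 1.22 CPM in AL/NP replicates 2 and 3, and 0.497 to 0.773 CPM in control livers.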

How the data were processed

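The authors deposited a table of whole-number read counts per Ensembl gene, 1 column per library, without normalization. Per the submitters' processing notes, STAR 2.6.1a, featureCounts, DESeq2 1.26.0 and the GRCm38 build were used. Strand setting, annotation release and treatment of multiply matching reads are not given in the sources used here, so counts of genes with near copies are uncertain. Poly(A) RNA libraries were stranded and read in 50-base pairs, per the labels.

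Groups were compared with edgeR 4.0.16 in R 4.3.3 (robust quasi-likelihood test, TMM scaling, filterByExpr with a minimum count of 10). The Benjamini-Hochberg adjustment covered 15939 genes (threshold 0.05). Each SE was taken from the log2 fold change and the root of its F statistic. DESeq2 1.42.0 was run beside it. The test was tried on simulated data. Gene symbols matched 40254 of 41388 identifiers. Coordinates and exon lengths are from GENCODE M21, and promoters from RefSeq. No 2 libraries were duplicates (chi-square per degree of freedom at least 30.6). A level of 3 counts was 0.0825 to 0.104 TMM-scaled CPM, covering counting error only.

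The members and the 16 other gene lists were chosen with earlier results of these data known. All 10 members were named. Of each chaperone, regulator and immediate early list the 3 genes with the smallest p were named, with the 5 genes most like Hspa1b. A Cd3e value and Ly6g were named after their values were seen. Alternatives were other scalings, filters, a replicate block, each library left out, DESeq2, mitochondrial genes and their 11 nuclear copies (blastn 2.17.0) left out, and Hspa1a and Hspa1b summed. List counts without control replicate 3 were added after seeing the data. Numbers were not taken as pairs, because the labels do not say that they mark a shared litter, batch or day. Deviations from the group mean had correlations of -0.055, 0.043 and 0.075 between same-numbered libraries, against -0.147 to 0.097 between the others. With 3 libraries per group, these values cannot exclude a shared batch.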

Additional observations from a re-analysis of the deposited data

How the results depend on the processing

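EdgeR called 13 genes, 2 of them heat shock genes. Both counts were unchanged with DESeq2 size factors and with mitochondrial genes and copies left out. With library totals as the only scaling, 0 genes and 0 heat shock genes were called (2254 genes at an unadjusted p under 0.05), and the median log2 fold change of all genes moved to 0.13. With at least 50 counts in 3 libraries the counts were 0 and 0 (2786 unadjusted). Without a filter beyond 1 count they were 747 of 29551 and 4, and the DESeq2 test gave 846 and 5. The replicate block gave 23 and 2, in pairs that share a number only. Leaving out 1 library gave 0 to 4 genes and 0 to 2 heat shock genes. Summing Hspa1a and Hspa1b left 0 of 9. The sign of 3 genes that were never called turned: Hspb1 was at -0.053 without control replicate 2 (0.89 without control replicate 3), Hspd1 was at -0.0086 when AL/NP replicate 3 was left out, and without control replicate 3 at -0.085 (0.19 without control replicate 1), and Hsf1 at 0.061 with library totals (below the shift of all genes) and at 0.13 without control replicate 3 (-0.23 without control replicate 1). Hspa1b stayed between 2.25 and 2.71 and Hspa1a between 2.07 and 2.75 over 14 alternatives, with adjusted p from 9.10e-18 to 0.148 and from 8.25e-10 to 0.202. Without control replicate 3 the list medians moved to -0.025 for other Hsp70 and Hsp110 genes, 0.094 for Hsp90 co-chaperones and 0.36 for small heat shock proteins, and edgeR called 0 genes of any list. Why these calls moved was not tested, beyond the smaller number of libraries or the different number of genes in those fits.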

Other observations

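Several heat shock genes have processed pseudogenes, copies without introns, that were counted as genes of their own. Gm8355, a pseudogene of Hspa8 that carries 28.5% of the 50-base stretches of its transcript, had 28963, 40617 and 34708 counts in AL/NP livers, against 23541, 24291 and 25921 in control livers. It held 51.5 counts per 100 of Hspa8, and its log2 fold change was 0.54 (SE 0.167, adjusted p = 0.161, edgeR), beside 0.66 for Hspa8. Gm15459, which carries 45.3% of those stretches, had 1168 counts over the 6 libraries, or 0.338 per 100 of Hspa8. The copy with more identical stretches thus had the lower count of these 2.

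Gm12346 and Gm5844, pseudogenes of Hsp90aa1, held 23.6 and 14.0 counts per 100 of the parent and had log2 fold changes of 0.51 (SE 0.362) and 0.54 (SE 0.291), beside 0.26 for Hsp90aa1 (adjusted p = 0.445, 0.325 and 0.491, edgeR). Hsp25-ps1, a pseudogene of Hspb1, held 23.5 counts per 100 and Hspd1-ps3 held 12.3 per 100 of Hspd1. Hsph1 and Hsf1 shared no 50-base stretch with any other annotated transcript. How the reads of these copies were assigned was not tested. These pseudogenes were named after their values were seen.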
